A study of Mus musculus with 15 samples.

Results

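The cholesterol genes of the mouse liver described here are 29 named genes that make cholesterol, sense it, control its uptake, and move or store it. They are a fixed list of gene symbols. No cutoff on their values selected them, but the list was chosen with earlier results of these data known. They stand among 57132 gene identifiers in the table of counts. All 29 were found, and all 29 passed the low-count filter, which left 18181 genes tested. The livers came from C57BL/6J mice, an inbred laboratory strain, all male and aged 8 weeks at the start, and their bulk RNA was sequenced. Chow animals ate standard chow. Vehicle animals ate CDA-HFD, a high-fat diet that lacks choline and in which defined amino acids replace protein, for 18 weeks, and in the last 6 of these weeks they were injected daily into the peritoneum with 15% Kolliphor ELP in saline. SR9009 animals ate the same diet over the same weeks and were injected daily with SR9009, a synthetic agonist of the clock repressors REV-ERB alpha and beta, at 100 mg/kg. The labels do not say whether Chow animals were injected, so diet and injection cannot be told apart in a comparison with Chow. The arms held 10 Chow animals and 15 in each injected arm, of which 4 Chow, 5 Vehicle and 5 SR9009 libraries were analysed. The labels do not tie each library to its own animal, so p-values measure only the spread between these samples.

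Cholesterol is built from acetyl-CoA by a chain of enzymes that first makes mevalonate, then isoprenoid units, then squalene, and last closes and trims the sterol rings. The transcription factor SREBP2, encoded by Srebf2, switches on most genes of this chain when membranes are short of sterol. SCAP carries SREBP2 toward its cleavage, and the INSIG proteins hold SCAP back when sterol is plentiful. Excess sterol activates the nuclear receptor LXR, which raises genes for efflux and for the breakdown of lipoprotein receptors. The liver is the main organ that clears cholesterol, through bile and through bile acids.

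Total counts per library ranged from 29950509 to 45542335, and the lowest count of any cholesterol gene in any library was 261, for Mylip. Levels are given as CPM, counts scaled to a common library size after TMM correction, and they are not compared between genes because they are not divided by gene length. Fold changes are on the log2 scale with their standard errors, and a gene was called when its adjusted p from edgeR's quasi-likelihood test was under 0.05. The liver label fitted the hepatocyte markers, whose 8 genes summed to 60115 CPM or more in every library. Of 3 adrenal cortex markers, which summed to 1.93 to 4.78 CPM over all libraries, Cyp11b1 had no count in 13 of 14 libraries and Cyp11a1 none in 6, while Star had 55 to 192 counts in every library. Both kidney markers had no count in 12 libraries. The 3 pancreas markers summed to 37.1 CPM or more in Chow libraries and to at most 24.3 CPM in Vehicle and 16.0 CPM in SR9009 libraries, with 483 to 1433 counts of Cela1, and their part in the results was not tested. Libraries did stand apart within the injected arms. Vehicle 2 held the lowest level of its group in 25 of the 29 cholesterol genes, and values that it moves by over 1.5-fold are given with and without it. Odorant, pheromone and trace amine receptor genes, which liver does not normally use, also differed: those with any count numbered 150 to 231 in Vehicle 1, 2 and 3 and SR9009 2, 4 and 5, and 45 to 105 in the other libraries.

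Vehicle was compared with Chow to describe what the diet with vehicle injection did to these genes. Most of the synthesis chain, its sterol sensors and the sterol efflux pumps had lower transcript levels in Vehicle livers, while Mylip and Soat2 had higher ones. Of the 29 genes, 22 were called, 20 lower and 2 higher, in a comparison where 55.2% of all tested genes were called, 25.4% lower and 29.8% higher. The median log2 fold change of the 29 was -0.82, against 0.023 over all tested genes. In 16 of the 29 every Vehicle library lay below every Chow library, which 20.7% of all tested genes did, and in 1 gene, Mylip, every Vehicle library lay above, as in 24.7% of all genes. Without Vehicle 2, 20 were called lower and 3 higher.

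**Figure D1:**
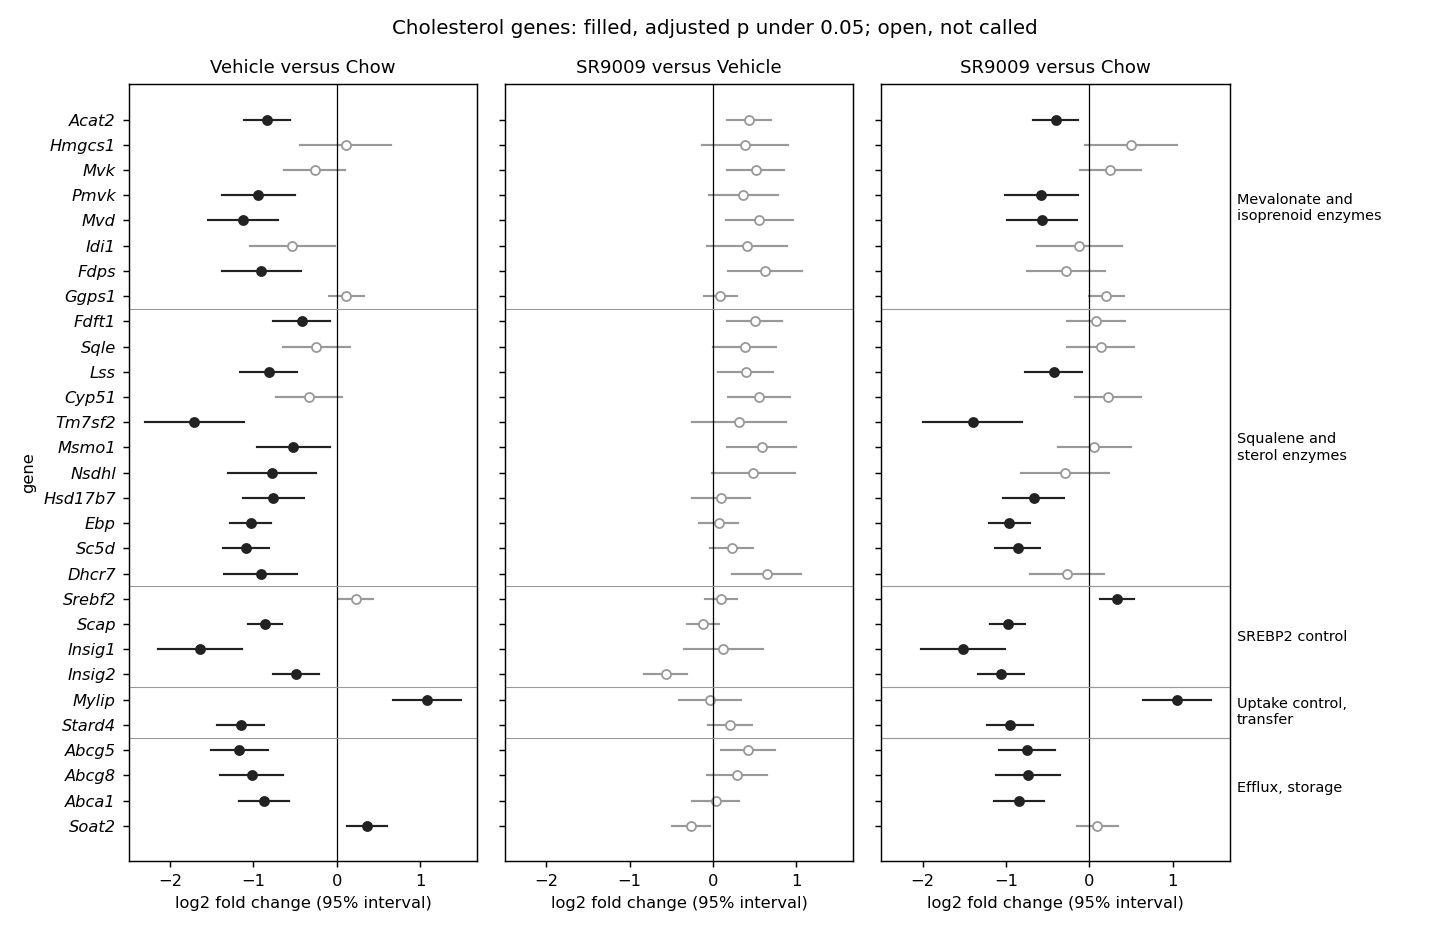
Log2 fold change (horizontal axis) of each of the 29 cholesterol genes (rows, grouped by role) with 95% intervals, in 3 panels for the 3 comparisons of 4 Chow, 5 Vehicle and 5 SR9009 libraries. Filled points were called at an adjusted p under 0.05: 22 genes in Vehicle versus Chow, 0 in SR9009 versus Vehicle and 17 in SR9009 versus Chow. Scaling by raw library totals turned some of the directions against Chow, among them Fdft1 in Vehicle versus Chow, from -0.42 to 0.057.

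The scale matters for this comparison. The TMM factors were 0.753 to 0.824 in Chow and above 1 in every other library. With raw library totals instead, the median of all tested genes moved from 0.023 to 0.50. The 29 genes were then called 12 lower and 5 higher with a median of -0.34. Their median differs from that of all genes by -0.84 under either scaling, because rescaling shifts all genes by about the same amount. That difference is therefore no check on the scale. Of all genes called, 11.7% were lower under raw totals, and 4621 of 10035 under TMM.

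Among the 8 enzymes from acetyl-CoA to the isoprenoids, 4 fell in Vehicle against Chow: Acat2, Pmvk, Mvd and Fdps. Each of these 4 was also called lower with raw totals except Fdps, at -0.43 with an adjusted p of 0.0753. Fdps, which makes farnesyl diphosphate, the last unit shared by sterols and other isoprenoids, stood at 518, 429, 479 and 424 CPM in the Chow libraries. It was at 269, 109.5, 226, 346 and 285 CPM in Vehicle 1 to 5. All Vehicle libraries lay below all Chow libraries, with Vehicle 2 far below its group, and Fdps was 1.87-fold lower (log2 -0.90 ± 0.22, adjusted p = 0.00279). Mvd, which decarboxylates mevalonate diphosphate, fell from 51.3 ± 10.7 CPM (SD, n = 4) to 23.5 ± 5.67 CPM (SD, n = 5), a log2 change of -1.12 ± 0.20 (adjusted p = 0.000218). Pmvk, the kinase before it, changed by -0.94 ± 0.21 (adjusted p = 0.00124) and Acat2, the thiolase that opens the chain, by -0.84 ± 0.13 (adjusted p = 4.71e-05). For all 4 genes the Chow and Vehicle libraries did not overlap.

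The other 4 early enzymes were not called. Hmgcs1, the HMG-CoA synthase and a standard readout of SREBP2 activity, was at 436, 264, 344 and 392 CPM in the Chow libraries and at 372, 174, 413, 559 and 418 CPM in Vehicle 1 to 5. The groups overlapped, with Vehicle 2 lowest and Vehicle 4 highest of all 9 libraries, and the log2 difference was 0.11 ± 0.26 with a 95% interval from -0.44 to 0.66. Without Vehicle 2 it was 0.29, and with raw totals 0.59 (adjusted p = 0.0477). The mevalonate kinase Mvk differed by -0.27 ± 0.17 (interval -0.63 to 0.099), or -0.14 without Vehicle 2, and its sign turned to 0.21 with raw totals. Ggps1, which makes the geranylgeranyl tails of prenylated proteins rather than sterol, differed by 0.11 ± 0.099 (interval -0.095 to 0.32), and with raw totals it was called higher at 0.59 (adjusted p = 0.00026). Idi1, the isopentenyl diphosphate isomerase, differed by -0.53 ± 0.24 with an adjusted p of 0.0725. It was called by DESeq2 (adjusted p = 0.0369) and limma-voom (adjusted p = 0.0278), and by edgeR with the replicate block (adjusted p = 0.0198), without Chow 2 or without Vehicle 4, with log2 values from -0.70 to -0.37 over all fits that left out 1 library.

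Of the 11 enzymes that make squalene and turn it into cholesterol, 9 fell: Fdft1, Lss, Tm7sf2, Msmo1, Nsdhl, Hsd17b7, Ebp, Sc5d and Dhcr7. The lowest log2 value of all 29 genes, close to that of Insig1, was that of Tm7sf2, a sterol ring reductase of the endoplasmic reticulum. Without Vehicle 2 the order turned, with Tm7sf2 at -1.49 and Insig1 at -1.54. Tm7sf2 was at 224, 159, 168 and 155 CPM in the Chow libraries and at 71.4, 18.5, 52.5, 66.3 and 61.5 CPM in Vehicle 1 to 5. Every Vehicle library lay far below the lowest Chow library, and Tm7sf2 was 3.27-fold lower (log2 -1.71 ± 0.28, adjusted p = 0.000132). Sc5d, the sterol desaturase near the end of the chain, fell from 839 to 1032 CPM to 365 to 525 CPM, by -1.09 ± 0.13 (adjusted p = 3.68e-06). Ebp, the isomerase just before it, fell from 272 to 322 CPM to 117 to 158 CPM, by -1.03 ± 0.12 (adjusted p = 2.01e-06). These 3 genes also kept their call with raw library totals.

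Dhcr7, the reductase that completes cholesterol, was at 156, 109.7, 148 and 149 CPM in the Chow libraries and at 67.4, 46.1, 61.5, 111 and 87.3 CPM in Vehicle 1 to 5. Vehicle 4 lay just above Chow 2 and the other Vehicle libraries below all Chow ones, and the change was -0.91 ± 0.21 (adjusted p = 0.00161). Lss, which closes the rings to lanosterol, changed by -0.82 ± 0.16 (adjusted p = 0.000493). Nsdhl and Hsd17b7, which take part in the removal of methyl groups from the ring, changed by -0.77 ± 0.25 (adjusted p = 0.0159) and -0.76 ± 0.17 (adjusted p = 0.00161). With raw totals these 4 genes kept a negative log2 value, from -0.44 to -0.28, and none was called. Nsdhl also lost its call with no low-count filter (adjusted p = 0.0646), with only the 2 groups fitted (adjusted p = 0.0575) and with a receptor gene covariate (adjusted p = 0.111).

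The remaining 4 sterol enzymes had values closer to 0. Fdft1, the squalene synthase, changed by -0.42 ± 0.16 (adjusted p = 0.0374) and Msmo1, a methyl sterol oxidase, by -0.52 ± 0.21 (adjusted p = 0.0426). Both calls depended on single libraries. Fdft1 lost its call without any 1 of Chow 1, Chow 3, Chow 4, Vehicle 1, Vehicle 3 or SR9009 3. Without Vehicle 2 it stayed called only barely, at an adjusted p that rounds to 0.05. Its log2 values ran from -0.56 to -0.29 and its adjusted p from 0.00469 to 0.136 over the 14 fits that left out 1 library. Msmo1 lost its call without any 1 of Chow 1, Chow 3, Chow 4, Vehicle 3, Vehicle 5, SR9009 3, SR9009 4 or SR9009 5, with log2 values from -0.65 to -0.36 and adjusted p from 0.0187 to 0.116. The 3 settings that ended the call of Nsdhl ended those of Fdft1 and Msmo1 too, with adjusted p from 0.0894 to 0.211. The squalene epoxidase Sqle, a rate-controlling step, differed by -0.24 ± 0.19 (interval -0.65 to 0.16) and the lanosterol demethylase Cyp51 by -0.33 ± 0.18 (interval -0.72 to 0.059), and neither was called. Cyp51 was called only without Vehicle 4, at -0.45 with an adjusted p of 0.042. Without Vehicle 2, Sqle was at -0.11 and Cyp51 at -0.17. With raw totals Fdft1, Sqle and Cyp51 turned to 0.057, 0.23 and 0.15, and Msmo1, at -0.043, was not called.

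In the sterol-sensing group, 3 of 4 genes fell. Insig1, both a sensor and itself a target of SREBP2, was at 1058, 694, 1154 and 585 CPM in the Chow libraries and at 260.3, 198, 225, 443 and 274 CPM in Vehicle 1 to 5. The highest Vehicle library, Vehicle 4, stayed below the lowest Chow library, and Insig1 was 3.12-fold lower (log2 -1.64 ± 0.24, adjusted p = 3.62e-05). Scap fell from 139 to 164 CPM to 65.1 to 93.8 CPM, by -0.86 ± 0.097 (adjusted p = 1.99e-06). Insig2, the INSIG gene whose liver transcript does not depend on SREBP2, changed by -0.49 ± 0.13 (adjusted p = 0.00408), and with raw totals its value was -0.0075. Srebf2 itself was at 99.7, 88.8, 92.0 and 98.0 CPM in Chow and 109, 90.7, 115, 136 and 104 CPM in Vehicle 1 to 5. Only Vehicle 2 lay within the Chow range, and the log2 difference of 0.23 ± 0.097 was not called by edgeR (adjusted p = 0.0521). It was called by DESeq2 (adjusted p = 0.0432) and limma-voom (adjusted p = 0.0235), and by edgeR with a stricter low-count filter (adjusted p = 0.0334), without Vehicle 2 or without Vehicle 5, with values from 0.15 to 0.30 over the fits that left out 1 library. With raw totals it was called at 0.71 (adjusted p = 1.37e-05).

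**Figure D2:**
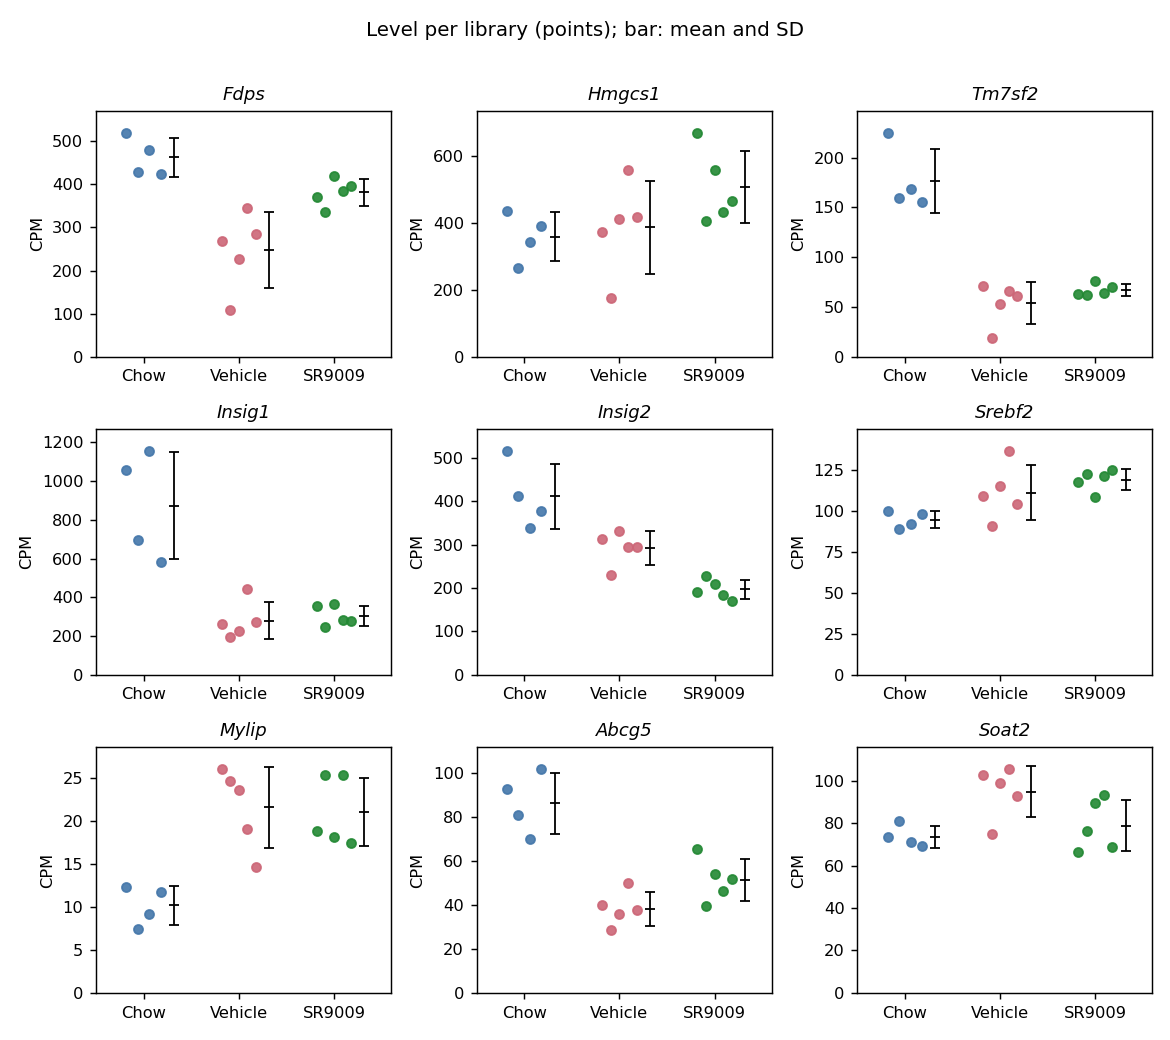
CPM (vertical axis, from 0) of 9 cholesterol genes in each of 4 Chow, 5 Vehicle and 5 SR9009 libraries (points), with the group mean and SD beside them. Tm7sf2 and Insig1 are low in both diet groups, Insig2 steps down from Chow to Vehicle to SR9009 with no overlap between groups, and Vehicle 2 is the lowest Vehicle library for Fdps, Hmgcs1 and Tm7sf2.

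Among the genes of uptake and transfer, Mylip rose and Stard4 fell. Mylip encodes the LXR-induced ubiquitin ligase that marks lipoprotein receptors for breakdown. It was at 12.3, 7.47, 9.20 and 11.7 CPM in the Chow libraries and at 26.0, 24.6, 23.6, 19.1 and 14.6 CPM in Vehicle 1 to 5. Every Vehicle library exceeded every Chow library, and Mylip was 2.13-fold higher (log2 1.09 ± 0.19, adjusted p = 0.000185). Stard4, a carrier of cholesterol between membranes and a target of SREBP2, fell from 149 to 243 CPM to 76.7 to 93.6 CPM, by -1.15 ± 0.13 (adjusted p = 2.26e-06).

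All 3 sterol efflux pumps fell. Abcg5 and Abcg8 encode the partner subunits of the pump that sends sterol into bile, and LXR is known to induce both. Abcg5 was at 92.7, 80.9, 69.9 and 102 CPM in the Chow libraries and at 40.1, 28.5, 35.8, 49.8 and 37.5 CPM in Vehicle 1 to 5, without overlap, a change of -1.17 ± 0.16 (adjusted p = 1.88e-05). Abcg8 changed by -1.02 ± 0.18 (adjusted p = 0.000186). Abca1, which loads cholesterol onto apolipoprotein A-I and is also LXR-induced, fell from 262 to 345 CPM to 141 to 199 CPM, by -0.88 ± 0.14 (adjusted p = 7.45e-05). So of the 4 genes here that LXR is known to induce, Mylip was higher and the other 3 were lower. Soat2, which esterifies cholesterol in hepatocytes, rose from 73.6 ± 5.18 CPM (SD, n = 4) to 94.8 ± 12.2 CPM (SD, n = 5), by 0.36 ± 0.12 (adjusted p = 0.0136), with Vehicle 2 inside the Chow range.

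Cell-type markers moved in the same comparison. Of 8 hepatocyte markers, 6 were called lower, and their summed level was 103060 to 140020 CPM in Chow, 72612 to 80581 in Vehicle and 60115 to 77140 in SR9009. The median log2 fold change of the 8 was -0.87 in Vehicle versus Chow, next to -0.82 for the 29 cholesterol genes. Of 7 lipid-laden macrophage markers, 7 were called higher, with sums of 61.9 to 84.2 CPM in Chow, 1527 to 2477 in Vehicle and 1226 to 2189 in SR9009. All 5 cholangiocyte markers and 5 of 6 stellate and myofibroblast markers were also called higher. In SR9009 versus Vehicle, the median log2 fold change was 1.31 for 3 mesothelium markers and 1.14 for 3 red cell markers. Medians of the other tested marker lists lay between -0.33 (B cell) and 0.26 (adrenal cortex). The mesothelium sums overlapped, at 7.11 to 37.3 CPM in Vehicle and 15.8 to 69.2 CPM in SR9009, as did the red cell sums. In bulk tissue, fewer cells of a type and less RNA per cell cannot be told apart, and the part of cell makeup in the values of the cholesterol genes was not tested.

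SR9009 was compared with Vehicle to describe what the agonist did in diet-fed livers. No cholesterol gene was called by edgeR, against 0.242% of all tested genes, 44 in number. All 19 synthesis enzymes had values above 0 and Insig2 one below 0, none of them past the test. At an unadjusted p under 0.05, 10 of the 29 were higher and 2, Insig2 and Soat2, were lower, while 3.91% of all tested genes were higher and 3.37% lower by that rule. The log2 value was above 0 in 25 of 29, against 50.3% of all tested genes, and the median of the 29 was 0.36 against 0.0011 over all genes. Without Vehicle 2 the median of the 29 was 0.19, the counts at an unadjusted p under 0.05 were 10 higher and 3 lower, and 1 gene, Insig2, was called. DESeq2 and limma-voom also called 1 gene, again Insig2. On simulated counts for 18181 genes of this comparison, 17.9% of genes changed by 1.5-fold and 80.6% of genes changed by 2-fold were recovered. The simulation gave every gene the same spread, while the standard errors of the 29 genes ran from 0.090 (Srebf2) to 0.26 (Tm7sf2). These rates are therefore not those of single cholesterol genes.

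**Figure D3:**
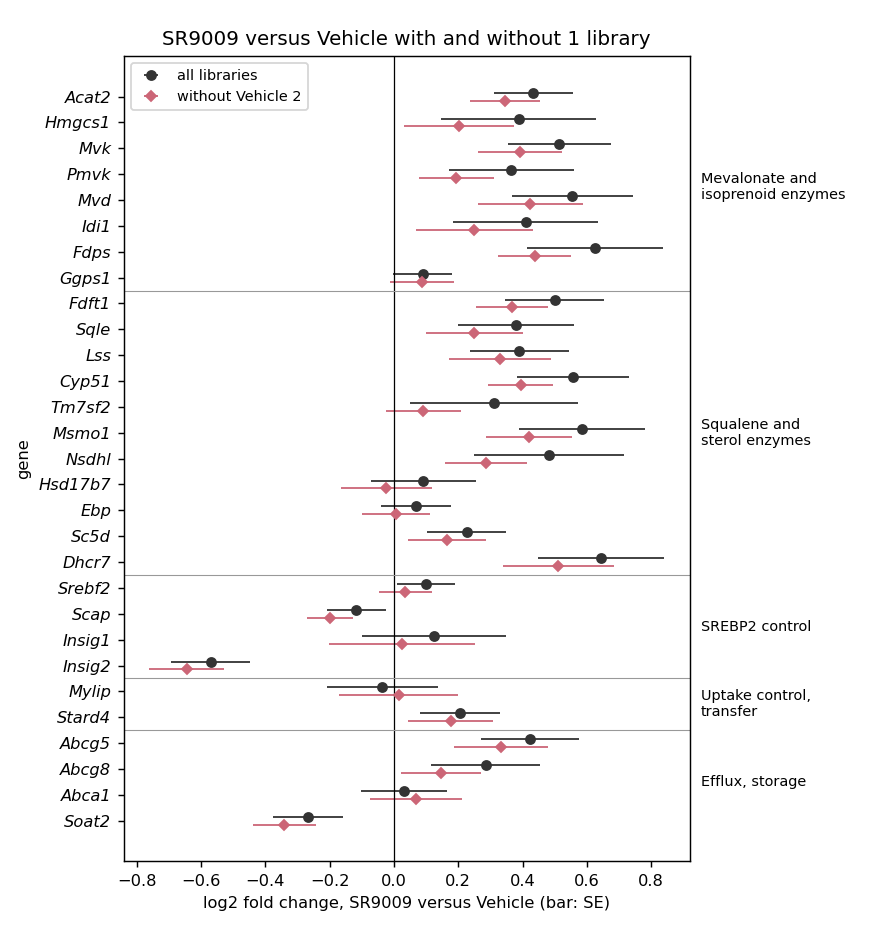
Log2 fold change of SR9009 versus Vehicle (horizontal axis, bars are standard errors) for the 29 cholesterol genes with all libraries (circles) and without Vehicle 2 (diamonds). The median of the 29 moves from 0.36 to 0.19, while Insig2 moves from -0.57 to -0.64.

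Insig2 was the cholesterol gene with the smallest p in this comparison, and it is known in mouse liver as a gene repressed by REV-ERB alpha. It was at 516, 414, 339 and 379 CPM in the Chow libraries, at 313, 230.0, 333, 294 and 294 CPM in Vehicle 1 to 5 and at 192, 229, 209.7, 185 and 171 CPM in SR9009 1 to 5. The 3 groups did not overlap, although the lowest Vehicle library and the highest SR9009 library lay side by side. Groups with SR9009 wholly below Vehicle were seen in 0.979% of all tested genes. The difference of SR9009 from Vehicle was -0.57 ± 0.12 (interval -0.83 to -0.31), with an adjusted p of 0.0868 by edgeR, 0.0277 by edgeR with no low-count filter, 0.002 by DESeq2 and 0.0317 by limma-voom. Over the fits that left out 1 library the value ranged from -0.64 to -0.52 and the adjusted p from 0.0261 to 0.252, and Insig2 was called without Chow 1 (adjusted p = 0.0403) and without Vehicle 2 (adjusted p = 0.0261). Insig1 differed by 0.13 ± 0.22 (interval -0.35 to 0.60), Scap by -0.12 ± 0.092 and Srebf2 by 0.10 ± 0.09, none of them called. Without Vehicle 2 these 3 were at 0.024, -0.20 and 0.035.

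All 19 synthesis enzymes had a log2 value above 0 in SR9009 versus Vehicle, with a median of 0.41. Of these, 9 had an unadjusted p under 0.05: Acat2, Mvk, Mvd, Fdps, Fdft1, Lss, Cyp51, Msmo1 and Dhcr7. Dhcr7 and Fdps had the largest values. Dhcr7 differed by 0.64 ± 0.20 (interval 0.22 to 1.06, adjusted p = 0.324), with 140.1, 99.6, 132, 98.0 and 114 CPM in SR9009 1 to 5 against 46.1 to 111 CPM in Vehicle. SR9009 and Vehicle libraries overlapped, since Vehicle 4 was higher than SR9009 2 and 4. Fdps differed by 0.63 ± 0.21 (interval 0.18 to 1.07, adjusted p = 0.391), at 371, 335, 418, 385 and 396 CPM in SR9009 1 to 5, where only SR9009 2 fell under the highest Vehicle library. Without Vehicle 2 the Fdps difference was 0.44. The 2 enzymes whose libraries did not overlap were Cyp51, at 254 to 295 CPM in SR9009 against 96.5 to 244 CPM in Vehicle, and Acat2, at 73.4 to 87.1 against 45.4 to 73.3 CPM. Libraries wholly above Vehicle were seen in 0.891% of all tested genes. Cyp51 differed by 0.56 ± 0.17 (adjusted p = 0.337) and Acat2 by 0.43 ± 0.12 (adjusted p = 0.242).

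The enzymes with the smallest differences were Ebp at 0.068 ± 0.11 (interval -0.16 to 0.30), Ggps1 at 0.089 ± 0.092 (interval -0.11 to 0.28) and Hsd17b7 at 0.091 ± 0.16 (interval -0.26 to 0.44). Tm7sf2, with the lowest log2 value in Vehicle versus Chow when all libraries were used, was at 63.1, 61.5, 75.7, 64.4 and 70.5 CPM in SR9009 1 to 5. It differed from Vehicle by 0.31 ± 0.26, or by 0.092 without Vehicle 2. Without that library 18 of the 19 enzymes had a value above 0, with a median of 0.29. Hmgcs1, Idi1, Pmvk, Sqle and Nsdhl moved from 0.39, 0.41, 0.36, 0.38 and 0.48 to 0.20, 0.25, 0.19, 0.25 and 0.29, and Ebp to 0.0063. Hsd17b7 then stood at -0.024, and it was -0.042 by limma-voom.

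The other groups showed smaller or mixed differences. Mylip differed by -0.037 ± 0.17 (interval -0.40 to 0.33) and Stard4 by 0.21 ± 0.12 (interval -0.057 to 0.47). Abcg5 differed by 0.42 ± 0.15 (unadjusted p = 0.0138, adjusted p = 0.448), with 65.3, 39.4, 54.1, 46.3 and 51.8 CPM in SR9009 1 to 5, and its partner Abcg8 by 0.29 ± 0.17 (interval -0.075 to 0.65). Abca1 differed by 0.032 ± 0.13 (interval -0.25 to 0.32). Without Vehicle 2, Mylip was at 0.015, Abcg8 at 0.15 and Abca1 at 0.068. Soat2 was at 66.3, 76.2, 89.6, 93.1 and 68.9 CPM in SR9009 1 to 5 against 102, 74.7, 98.8, 105 and 92.8 CPM in Vehicle 1 to 5, overlapping groups, and differed by -0.27 ± 0.11 (unadjusted p = 0.0251, adjusted p = 0.559).

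SR9009 compared with Chow shows where the treated livers stood relative to animals without the diet. Of the 29 genes 17 were called, 15 lower and 2 higher, while 56.2% of all tested genes were called, 25.7% lower and 30.5% higher. The 2 higher genes were Mylip, at 1.05 ± 0.19 (adjusted p = 0.000244), and Srebf2, at 0.33 ± 0.097 (adjusted p = 0.00808). Srebf2 was at 108 to 125 CPM in SR9009, above all Chow libraries at 88.8 to 99.7 CPM. The median of the 29 was -0.40 against 0.023 over all genes, and it was 0.053 with raw library totals, where the median of all genes was 0.47 and the calls were 10 higher and 8 lower. Chow 1 carried weight here. Without it 13 genes were called, 11 of them lower, with 4 enzymes lower instead of 8 and a median of -0.26.

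The sensors and pumps were low in SR9009 livers as well. Insig1 was at 356, 248, 364, 282 and 278 CPM in SR9009 1 to 5, 2.86-fold under Chow (log2 -1.51 ± 0.24, adjusted p = 7.13e-05). Insig2 was 2.09-fold under Chow (log2 -1.06 ± 0.13, adjusted p = 4.35e-06) and Scap changed by -0.98 ± 0.097 (adjusted p = 5.37e-07). Stard4, Abca1, Abcg5 and Abcg8 changed by -0.95, -0.84, -0.75 and -0.73, all called. With raw totals Abcg5 and Abcg8 were at -0.30 and -0.29 and lost their call, and Soat2 was called higher at 0.55.

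Of the 19 enzymes, 8 were called lower than Chow in SR9009: Acat2, Pmvk, Mvd, Lss, Tm7sf2, Hsd17b7, Ebp and Sc5d. Tm7sf2 changed by -1.40 ± 0.28 (adjusted p = 0.000638), Ebp by -0.96 ± 0.12 (adjusted p = 3.81e-06) and Sc5d by -0.86 ± 0.13 (adjusted p = 3.42e-05). The calls of Acat2, Pmvk, Mvd and Lss depended on single libraries. Acat2 lost its call without Chow 1 (log2 -0.26), Pmvk without Chow 1, SR9009 1 or SR9009 3 (range -0.64 to -0.42), Mvd without Chow 1, Chow 2, SR9009 2 or SR9009 4 (range -0.70 to -0.47), and Lss without Chow 1, Chow 3, SR9009 2, SR9009 3, SR9009 4 or SR9009 5 (range -0.54 to -0.36). Pmvk, Mvd and Lss also lost their call with no low-count filter (adjusted p from 0.0832 to 0.0934), and Mvd and Lss with the receptor gene covariate. The scale changed this picture: with raw totals 3 enzymes were called lower and 7 higher, the latter Hmgcs1, Mvk, Ggps1, Fdft1, Sqle, Cyp51 and Msmo1, at 0.52 to 0.95. Hsd17b7, at -0.21 (adjusted p = 0.268), Pmvk, at -0.12, and Mvd, at -0.12, were then not called, and Acat2 and Lss turned to 0.053 and 0.03. Fdps, Fdft1, Msmo1, Nsdhl and Dhcr7 were called lower in Vehicle versus Chow and not in SR9009 versus Chow. Their values in the 2 comparisons were -0.90 and -0.28, -0.42 and 0.078, -0.52 and 0.062, -0.77 and -0.29, and -0.91 and -0.27. These comparisons share the Chow libraries, and the difference between them is the comparison of SR9009 with Vehicle given above, in which none of the 5 was called. Hmgcs1, at 668, 406, 559, 434 and 465 CPM in SR9009 1 to 5, differed from Chow by 0.50 ± 0.26 (adjusted p = 0.115) and was called at an adjusted p of 0.0228 without Vehicle 2 and of 0.0246 with only the 2 groups fitted. Fdps and Nsdhl were called lower with only the 2 groups fitted (adjusted p = 0.0256 and 0.0466), Fdps also without Vehicle 2, and Ggps1 was called higher without Chow 4.

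**Figure D4:**
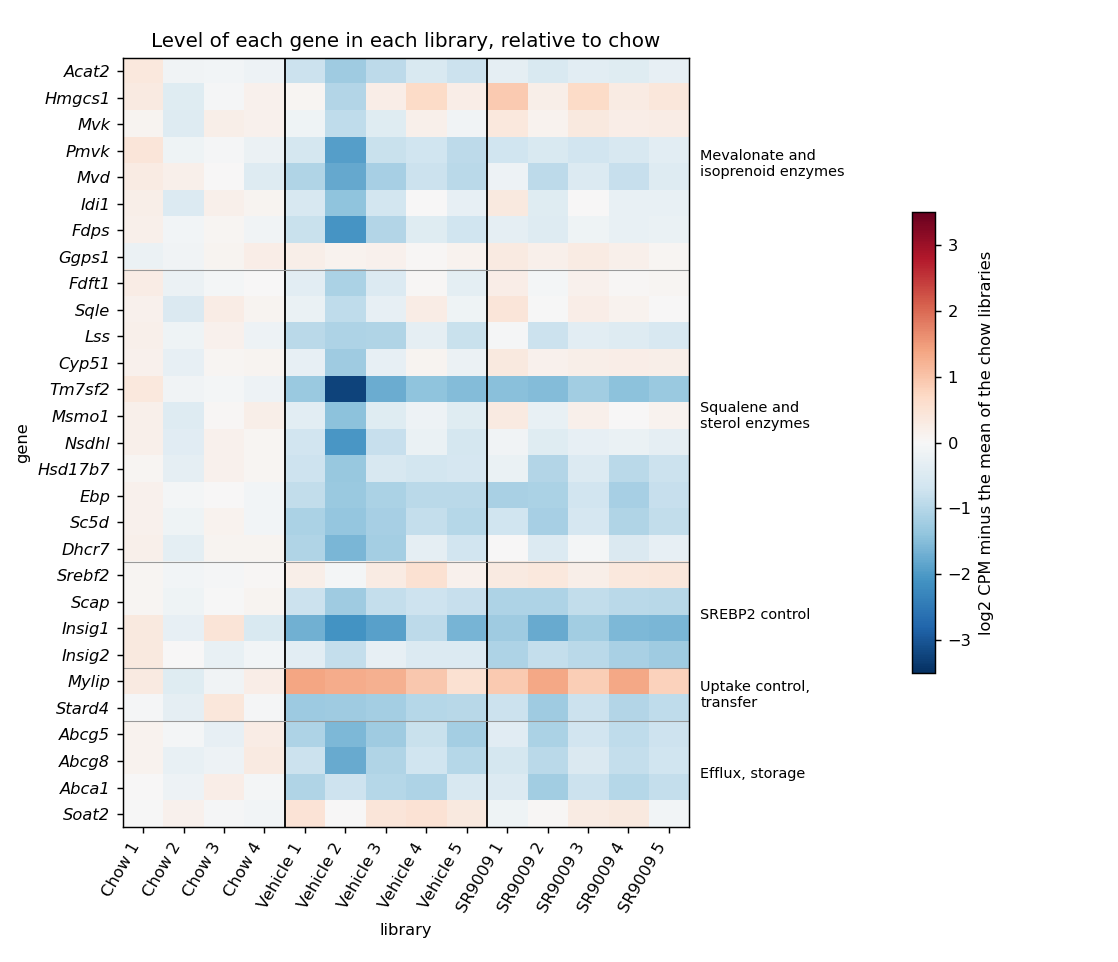
Log2 CPM of each of the 29 cholesterol genes (rows, grouped by role) in each of the 14 libraries (columns), minus the mean of the 4 Chow libraries, with blue for lower and red for higher. Vehicle 2 is the bluest column among the enzymes, Mylip is red in all 10 diet-fed libraries, and the 5 SR9009 libraries of Srebf2 lie above all Chow libraries.

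The enzymes varied together from library to library. The mean of the 19 on the log2 scale, relative to Chow, was -0.61, -1.42, -0.72, -0.31 and -0.56 in Vehicle 1 to 5 and -0.10, -0.47, -0.17, -0.37 and -0.28 in SR9009 1 to 5. The Chow libraries stood at 0.19, -0.25, 0.066 and -0.0099. Vehicle libraries averaged -0.72 ± 0.41 (SD, n = 5) and SR9009 libraries -0.28 ± 0.15 (SD, n = 5), and the groups overlapped because Vehicle 4 lay among the SR9009 libraries. Without Vehicle 2 the Vehicle mean was -0.55 ± 0.17 (SD, n = 4). Vehicle 2 was the lowest Vehicle library in 18 of the 19 enzymes and Vehicle 4 the highest in 14. Within SR9009, library 2 was lowest in 15 of 19 and library 1 highest in 13.

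**Figure D5:**
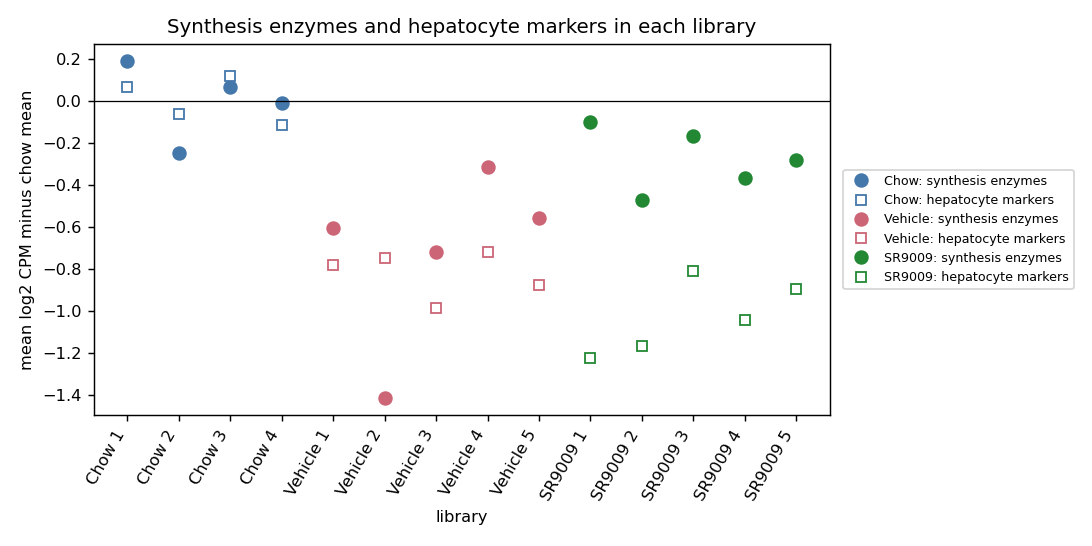
Mean log2 CPM relative to Chow (vertical axis) of the 19 synthesis enzymes (filled circles) and of 8 hepatocyte markers (open squares) in each library (horizontal axis). Vehicle 2 has the lowest enzyme mean, -1.42, while its hepatocyte marker mean of -0.75 lies within the Vehicle range, and SR9009 1 has the highest enzyme mean of the diet-fed libraries, -0.10, with the lowest marker mean, -1.23.

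The mean of the hepatocyte markers was between -0.99 and -0.72 in Vehicle libraries and between -1.23 and -0.81 in SR9009 libraries. Receptor gene counts ran beside the enzymes only in part. Vehicle 4 and 5, with 58 and 76 receptor genes detected, had the 2 highest enzyme means among Vehicle libraries, and SR9009 1 and 3, with 65 and 72, the 2 highest among SR9009 libraries. Each arm held 2 such libraries and 3 with more receptor genes. Other libraries did not follow this order. Vehicle 2, with the lowest enzyme mean, had 152 receptor genes, fewer than Vehicle 1 and 3 with 230 and 231. Among Chow libraries, Chow 1 had the most receptor genes, 105, and the highest enzyme mean. With the log2 number of receptor genes as a covariate the median of the 29 genes in SR9009 versus Vehicle was 0.35, close to 0.36 without it. In Vehicle versus Chow it was -0.62 with 19 genes called, and in SR9009 versus Chow -0.23 with 15 called, against -0.40 and 17 without the covariate.

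The wider pathway was described with 46 tested genes in 5 lists. In Vehicle versus Chow 13 of the 46 were called higher and 17 lower, a share near that of all tested genes on the higher side, 29.8%, and above their 25.4% on the lower side. With raw totals the counts were 28 higher and 5 lower, so the counts of each list below hold for TMM scaling and are given as a description. In Vehicle versus Chow, the list of SREBP processing and sterol-driven degradation had 2 of 9 genes higher and 5 lower. Srebf1, the sister gene of Srebf2 that drives fatty acid synthesis, changed by -1.88 ± 0.27 (adjusted p = 3.13e-05), from 546 to 706 CPM in Chow to 101 to 283 CPM in Vehicle. In the list of LXR and lipoprotein exchange 3 of 9 were higher and 3 lower. Abcg1, an LXR-induced pump abundant in macrophages, rose by 2.16 ± 0.17 (adjusted p = 7.43e-08), and Lcat, the plasma enzyme that esterifies cholesterol, changed by -0.72 ± 0.10 (adjusted p = 1.79e-05).

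Intracellular trafficking and storage had 5 of 12 genes higher and 2 lower. Soat1, the esterifying enzyme of macrophages and most other cells, rose from 3.26 to 6.55 CPM in Chow to 28.9 to 40.3 CPM in Vehicle, by 2.93 ± 0.16 (adjusted p = 2.21e-09), next to the log2 rise of 0.36 of its hepatocyte partner Soat2. Gramd1b, a sterol carrier at membrane contacts, rose by 2.33 ± 0.21 (adjusted p = 1.91e-07). The isoprenoid branches had 2 of 10 higher and 4 lower, with Pdss2 at -0.64 ± 0.11 (adjusted p = 0.000124) and Icmt at -0.34 ± 0.071 (adjusted p = 0.000744). With raw totals neither was called, at -0.16 and 0.14. Oxysterol and bile acid exit had 1 of 6 higher and 3 lower. Cyp7b1, the oxysterol hydroxylase of the alternative bile acid route, fell from 385 to 739 CPM in Chow to 15.1 to 63.4 CPM in Vehicle, a log2 change of -3.61 ± 0.36 (adjusted p = 2.18e-06). Ch25h, an oxysterol-forming enzyme of immune cells, was called higher (adjusted p = 3.07e-05), with 0 to 2 counts in each Chow library, 4 in all, and 14 to 30 in each Vehicle library. No fold change is given for Ch25h, since the Chow counts are too few. Macrophage markers rose in the same libraries, as given above, and their part in these values was not tested.

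In SR9009 versus Vehicle none of the 46 genes was called by edgeR, 3 had an unadjusted p under 0.05, all higher, and limma-voom called none. DESeq2 called 3, all higher: Tmem97, Pgrmc1 and Cyp7a1, which are named here after their values were seen. Cyp7a1, the rate-limiting enzyme of bile acid synthesis, was at 43.3, 52.8, 43.4, 61.2 and 70.3 CPM in Vehicle 1 to 5 and at 178, 58.6, 152, 73.5 and 152 CPM in SR9009 1 to 5. SR9009 2 lay within the Vehicle range, and the edgeR difference was 1.18 ± 0.30 (adjusted p = 0.213). Tmem97, a sterol-regulated binding protein, differed by 0.45 ± 0.11 (adjusted p = 0.175) without overlap between groups, and Pgrmc1, a heme-binding partner of Cyp51, by 0.38 ± 0.10 (adjusted p = 0.242).

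Promoter sequences were examined because the enzymes moved together and SREBP2 works with partner sites. RefSeq windows of GRCm38.p6, an earlier build than the GRCm39 of the counts and used here only for sequence, were found for 24 of the 29 genes, and the 250 bases before each start site were searched on both strands. The core sterol regulatory element TCACNCCAC was in 1 of the 24, Hmgcs1, and in 1.23% of 27025 genes. Only this string was searched, so variant forms of the element and sites outside the 250 bases were not counted. The 27025 are all genes with a window, tested here or not, while the 24 all passed the low-count filter. The shares of all genes are therefore not those of genes expressed in liver. CCAAT, the site of the SREBP partner NF-Y, was in 20 of the 24 (83.3%), 15 of 16 enzymes among them, and in 37.5% of all genes. The E-box CACGTG, bound by clock activators and by SREBP, was in 6 of the 24 (25.0%) and in 6.86% of all genes. TNAGGTCA, a core of the element shared by REV-ERB and ROR receptors, was in 2 of the 24, Insig1 and Dhcr7 (8.33%), and in 4.51% of all genes. In Insig1 this match overlaps the E-box. The following windows are shown for the genes whose values are described above, 5′ to 3′ on the strand of the gene, with the match in capitals. A match on the opposite strand reads as its reverse complement, as in Dhcr7 and Tm7sf2.
Hmgcs1, TCACNCCAC: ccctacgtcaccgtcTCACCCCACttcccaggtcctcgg
Insig1, TNAGGTCA: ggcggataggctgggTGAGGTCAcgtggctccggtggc
Insig1, CACGTG: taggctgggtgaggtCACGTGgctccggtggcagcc
Dhcr7, TNAGGTCA: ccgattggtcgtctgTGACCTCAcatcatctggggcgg
Insig2, CCAAT: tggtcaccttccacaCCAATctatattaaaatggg
Tm7sf2, CCAAT: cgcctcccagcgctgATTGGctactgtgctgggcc
These lie at chr13:119690199-119690237, chr5:28071290-28071327, chr5:28071296-28071331, chr7:143830162-143830199, chr1:121332599-121332633 and chr19:6067878-6067912. Such matches are a description of letters, not of binding. The 6 genes with the E-box, Abca1, Dhcr7, Hsd17b7, Insig1, Sc5d and Scap, were all called lower in Vehicle versus Chow, at -0.88, -0.91, -0.76, -1.64, -1.09 and -0.86, as were 20 of all 29. In SR9009 versus Vehicle they were at 0.032, 0.64, 0.091, 0.13, 0.23 and -0.12, none of them called. Hmgcs1, the gene with the sterol regulatory element match, was at 0.11 and 0.39 in the 2 comparisons.

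Abcg5 and Abcg8 lie head to head on chromosome 17, with start sites 110 bases apart in that build and a shared stretch of 82 exonic bases, so their counts are not fully separate where strand was not used. Other pairs share exonic bases too. In the earlier annotation Fdft1 shares 18.3% of its exonic bases with Ctsb on the opposite strand, and Ctsb, a lysosomal protease, changed by 1.12 ± 0.10 in Vehicle versus Chow (adjusted p = 2.89e-07), against -0.42 for Fdft1. Tm7sf2 shares 12.1% with Vps51 on the same strand, and Vps51 differed by -0.15 ± 0.10. Fdps shares 26.7% with the gene model Gm43738 on the same strand. Other opposite-strand overlaps include 13.2% of Scap with 5830462I19Rik and 12.1% of Hmgcs1 with Gm48342. Whether counting used strand is not stated in the labels or files, so values of genes with opposite-strand overlaps are uncertain to that extent. The same-strand overlaps of Tm7sf2 and Fdps cannot be separated by strand, so their values are uncertain whether or not strand was used.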

How the data were processed

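The authors deposited raw counts per gene identifier, 1 column for each of 14 libraries. Per the submitters' processing notes the aligner was STAR 2.7.11b and the build GRCm39. The counting program, its annotation and its use of strand are not stated. Of 15 described samples, Chow replicate 5 was not analysed here. Symbols came from a table of an earlier annotation and matched 90.8% of identifiers, which held 99.6% of counts. Counts were fitted with edgeR 4.0.16 in R 4.3.3 (filterByExpr, minimum count 10 and minimum total 15, TMM scaling, robust quasi-likelihood F-tests, 3 groups in 1 fit) and p-values adjusted by Benjamini-Hochberg over 18181 genes at 0.05. Standard errors are those that give the F statistic. The fit was tested on simulated data. Alternatives were DESeq2 1.42.0, limma-voom (limma 3.58.1), other scalings, other filters, fits of 2 groups, a replicate block, a receptor gene covariate and leaving out each library. Named genes were all 29 cholesterol genes and, from each of the 5 pathway lists, the 2 with the smallest adjusted p in Vehicle versus Chow, since none was called in SR9009 versus Vehicle. From the list of SREBP processing 1 gene is not reported here, and it is left out of that list's counts and was not replaced. The members and lists were chosen with earlier results of these data known. Library pairs within a group differed by more than sampling noise (mean chi-square per gene 15.9 or more).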

Additional observations from a re-analysis of the deposited data

Results flagged for a closer look

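In groups of 4 or 5 libraries, 1 library was set apart where its gap to the nearest other library took an unusually large share of the whole range, past the 95% critical value of Dixon's test. The 90 cases examined were the 29 genes and the mean of the 19 synthesis enzymes, each in 3 groups. Of these cases 5 were so marked, all of them single genes, and chance alone marks about 1 in 20. In Vehicle 2, Msmo1 was at 88.8 CPM against 180 or more in the other Vehicle libraries, Hsd17b7 at 42.5 CPM against 64.3 to 72.3, and Scap at 65.1 CPM against 86.2 to 93.8. Without Vehicle 2 these genes differed between Vehicle and Chow by -0.36, -0.64 and -0.78 on the log2 scale. In Chow 1, Acat2 was at 139 CPM against 95.2 to 100.03 in the other Chow libraries. In Chow 2, Hsd17b7 was at 87.0 CPM against 113 to 118.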

How the results depend on the processing

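The count of cholesterol genes called in Vehicle versus Chow was 17 to 24 over all alternatives and its median stayed below 0, at -0.34 with raw library totals. In SR9009 versus Chow the median was 0.053 with raw totals. Raw totals also turned 5 named genes in Vehicle versus Chow (Mvk 0.21, Fdft1 0.057, Sqle 0.23, Cyp51 0.15, Icmt 0.14) and 7 in SR9009 versus Chow (Acat2 0.053, Idi1 0.34, Fdps 0.17, Lss 0.030, Nsdhl 0.17, Dhcr7 0.18, Icmt 0.16). Idi1 was 0.11 in the latter with the receptor gene covariate. In SR9009 versus Vehicle the count of cholesterol genes called, 0, became 1 with DESeq2, with limma-voom and with no low-count filter. Leaving out 1 library gave 0 to 1 called there, 20 to 24 in Vehicle versus Chow and 13 to 19 in SR9009 versus Chow. Values near 0 changed sign in SR9009 versus Vehicle: Hsd17b7 -0.042 and Abca1 -0.0062 with limma-voom, Gramd1b -0.011 with raw totals, and with the covariate Mylip 0.020, Srebf1 -0.019, Abca1 -0.0049 and Lcat 0.0037. Leaving out 1 library moved across 0 the values of Abca1 (-0.073 to 0.12), Cyp7b1 (-0.33 to 0.12), Ebp (-0.020 to 0.12), Gramd1b (-0.066 to 0.17), Hsd17b7 (-0.035 to 0.17), Lcat (-0.051 to 0.062), Mylip (-0.15 to 0.039), Pdss2 (-0.097 to 0.024) and Srebf1 (-0.14 to 0.30) in SR9009 versus Vehicle. It did so for Hmgcs1 (-0.060 to 0.29) in Vehicle versus Chow and for Msmo1 (-0.064 to 0.14) and Sqle (-0.0014 to 0.22) in SR9009 versus Chow. The cause was not tested beyond the settings themselves. The replicate numbers did not pair the samples (same-number correlations from -0.40 to 0.24). With them as a replicate block the cholesterol genes called were 23, 0 and 17 in the 3 comparisons, and all genes called in SR9009 versus Vehicle were 15 instead of 44. All-gene counts there were 212 with DESeq2 and 18 to 56 without 1 library. With 5 libraries a group, changes of 1.5-fold were seldom recovered in the simulation, which gave every gene the same spread. Values not called are not shown to be equal.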
